A study of Mus musculus with 12 samples.

Results

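The 3 arrays of C57MG cells treated with Rspo2 plus Wnt3a were compared with the 3 arrays of cells treated with Rspo2 alone, so that the comparison gives the change that Wnt3a made in cells that already received Rspo2. These 6 arrays were chosen by their treatment labels from the 12 arrays of the series. C57MG cells are an established epithelial line from mouse mammary tissue. Every group received its proteins for 24 h in plain DMEM, after growth in medium with serum and insulin: recombinant human Rspo2 at 100 ng/ml for the Rspo2 arrays, and the same Rspo2 with recombinant mouse Wnt3a at 100 ng/ml for the others. Cells with BSA, the carrier protein that served as control, and cells with Wnt3a alone, on 3 arrays each, were used for a side-by-side view of Wnt3a without Rspo2. Each array held RNA from its own monolayer of the single cell line, so the p-values measure the spread between monolayers.

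Wnt proteins bind Frizzled receptors and Lrp5 or Lrp6 at the cell surface, which spares β-catenin from degradation and lets it enter the nucleus, where it activates genes together with the Tcf/Lef factors. R-spondins bind Lgr4, Lgr5 and Lgr6 and the ubiquitin ligases Znrf3 and Rnf43, which otherwise remove Frizzled from the surface, so that R-spondins raise the response of a cell to Wnt. In the mammary gland this pathway is known for its role in stem cells, in branching and in tumors of mice that carry an activated Wnt gene.

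All levels below are log2 signals relative to the 75th percentile of the same array, so a level of 0 is the signal that 75 of 100 probes did not exceed, and a difference of 1 is 2-fold. A probe was called when its adjusted p in limma was under 0.05 and its change at least 2-fold. That percentile lay between 793 and 1022 intensity units on the Rspo2 arrays and between 941.8 and 1058 on the arrays with both proteins, and 51.28% to 61.73% of the probes of an array were well above background. The arrays of a group correlated with each other at 0.9812 to 0.9903 across probes, and arrays of the 2 groups at 0.9745 to 0.9854. The first principal component of the 6 arrays, with 58.6% of the variance, held the Rspo2 arrays between -28.83 and -20.54 and the arrays with both proteins between 22.1 and 28.51. The 2 groups shared no slide: 1 Rspo2 array lay on the slide of the BSA arrays, the other 2 with 2 Wnt3a arrays, and the arrays with both proteins with the remaining Wnt3a array. Slide and treatment were therefore separated only by a fit with slide as a term, which rests on the groups that span 2 slides. Signals per array cannot tell fewer cells of a kind from less RNA per cell.

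The labelled cell type was checked against markers. Of 10 genes of luminal mammary epithelium, only Krt8 and Esr1 were well above background on all 6 arrays, with changes of -0.91 and 0.17 that were not called, and Cdh1, Cldn7, Csn2, Elf5, Epcam, Krt18 and Krt19 were not detected in either group. Of 8 basal or myoepithelial genes, Krt14, Krt17, Trp63 and Acta2 were measured on all 6 arrays, with changes of 1.18, -0.49, -0.55 and 0.35, of which that of Krt14 was called, whereas Cnn1, Myh11 and Oxtr were not detected. Of 10 genes of fibroblasts or mesenchyme, 8 were measured and none was called; the change in Vim, a filament protein of mesenchymal cells, was 0.02. The leukocyte genes Ptprc, Adgre1 and Itgam were not detected.

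Adding Wnt3a to Rspo2 raised Rhou, Enpp2, Ahr, Il33 and Tcf7, and it lowered Agt, Hsd11b1, Dhrs3, Angpt1 and a set of interferon-stimulated genes. A total of 20557 probes exceeded background clearly on each of the 6 arrays, which is called measured below, and 412 (2.0%) were called, 115 higher (0.559%) and 297 lower (1.44%) with Wnt3a. The called probes stood for 94 gene symbols that rose and 214 that fell. The median change was 0.02 over all these probes, 1.3 over those called higher and -1.26 over those called lower. The called probes were dim, with median intensities of 363.3 and 221 against 942.8 over all measured probes. Groups did not overlap for 7516 probes (36.6%). Among genes with more than 1 such probe, 110 had a called probe, 43 had all of them called, and none was called in both directions.

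**Figure D1:**
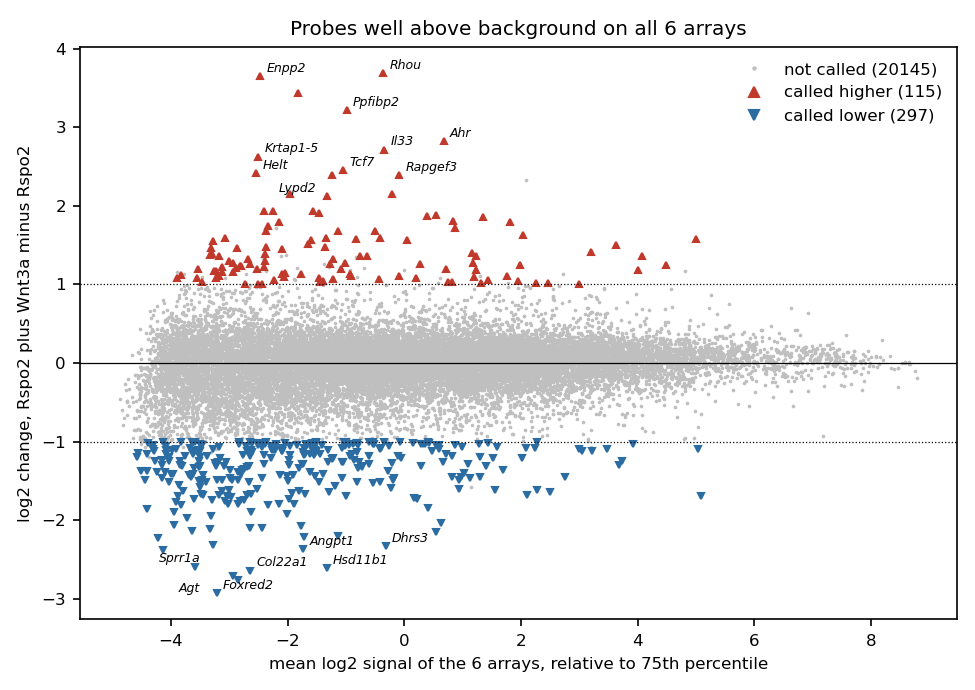
Change in log2 signal (Rspo2 plus Wnt3a minus Rspo2, y axis) against the mean log2 signal over the 6 arrays (x axis) for the 20557 measured probes, with called probes colored and dotted lines at 2-fold. The 297 probes called lower outnumber the 115 called higher, and both lie mostly at the dim end.

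The plot of change against signal shows that Rhou had the largest rise. Rhou, an atypical small GTPase, had levels of -2.01, -2.23 and -2.38 with Rspo2 and 1.47, 1.39 and 1.59 with both proteins. The 2 groups lay far apart, and the change was 3.69 (SE 0.138, adjusted p = 8.63e-08 in limma, 12.9-fold). Enpp2, which encodes autotaxin, the secreted enzyme that makes lysophosphatidic acid, rose from -3.86, -4.47 and -4.58 to -0.73, -0.68 and -0.54. All 3 arrays with Wnt3a exceeded every Rspo2 array, by 3.65 on average (SE 0.197, adjusted p = 8.36e-07 in limma, 12.6-fold). With the normexp background correction the change was 1.65 and not called. That setting replaced the processed signals by mean spot signals corrected with background medians, and added an offset of 50. Ppfibp2, a liprin scaffold protein, rose from -2.60, -2.42 and -2.77 to 0.43, 0.71 and 0.71, and a further probe of the gene rose too.

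Transcription factors were among the rises. Ahr, the ligand-activated aryl hydrocarbon receptor, had levels of -0.78, -0.64 and -0.79 with Rspo2 and 2.01, 2.06 and 2.19 with both. The replicates were tight beside a difference of 2.82 (SE 0.107, adjusted p = 9.02e-08 in limma). Tcf7, a partner of β-catenin on DNA, rose from -2.26, -2.22 and -2.34 to 0.04, 0.13 and 0.36, or 5.47-fold (SE of the log2 change 0.123, adjusted p = 4.96e-07 in limma), and its dimmer probe rose by 2.15. Helt, a basic helix-loop-helix repressor, rose from -3.98, -3.83 and -3.42 to -1.23, -1.33 and -1.44, with no overlap; its change of 2.41 was 0.90 and not called with normexp.

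Il33, an alarmin cytokine of the interleukin-1 family, rose from -1.59, -1.75 and -1.79 to 0.99, 1.03 and 1.01. The change was 2.72 (SE 0.089, adjusted p = 4.19e-08 in limma), the smallest SE among the 12 largest rises. Krtap1-5, a keratin-associated protein, rose from -3.97, -3.94 and -3.53 to -1.06, -1.16 and -1.35. Rapgef3, a cAMP-activated exchange factor for Rap GTPases, rose from -1.40, -1.15 and -1.32 to 1.08, 1.12 and 1.11. In both genes the groups were separate, but the change of 2.63 in Krtap1-5 was 0.85 and not called with normexp. The remaining 3 of the 12 largest rises were Lypd2 (2.39), the inward-rectifier potassium channel gene Kcnj2 (2.13) and Klhl30 (1.93), of which Kcnj2 and Klhl30 lost their calls with normexp.

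The largest measured fall was that of Foxred2, an oxidoreductase of the endoplasmic reticulum, from -1.52, -1.87 and -1.87 with Rspo2 to -4.83, -4.74 and -4.48 with both proteins. It was 7.6-fold lower, with a change of -2.93 (SE 0.114, adjusted p = 1.07e-07 in limma). Agt, the precursor of angiotensin, fell from -1.57, -1.67 and -1.50 to -3.95, -4.46 and -4.44. Hsd11b1, the enzyme that regenerates active glucocorticoid, fell from -0.10, 0.00 and 0.01 to -2.37, -2.76 and -2.77, or 6.08-fold (SE 0.118, adjusted p = 2.46e-07 in limma). In these genes each array with Wnt3a was below every Rspo2 array.

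Dhrs3, a reductase that turns retinaldehyde back into retinol, fell from 0.79, 0.74 and 0.98 to -1.44, -1.56 and -1.46. The change of -2.32 (SE 0.081, adjusted p = 5.53e-08 in limma) was met by -2.21 at its further probe. Angpt1, a ligand of the Tie2 receptor of vessels, fell from -0.40, -0.62 and -0.62 to -3.06, -2.70 and -2.99. Deptor, an inhibitor of mTOR complexes, fell from 1.64, 1.52 and 1.72 to -0.34, -0.51 and -0.73. It stayed well above background in both groups, as did Tanc2, a postsynaptic scaffold protein, whose change was -2.21.

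Col22a1, a collagen of tissue junctions, fell from -1.38, -1.27 and -1.32 to -3.91, -3.97 and -4.01, with the smallest SE (0.076) of the 12 largest falls. Abcg1, a cholesterol exporter, fell from -3.00, -3.15 and -3.19 to -5.47, -5.28 and -5.26. Sprr1a, a protein of the cornified envelope, fell from -2.25, -2.26 and -1.84 to -4.22, -4.63 and -4.45. No array of these 3 genes crossed to the side of the other group, and Abcg1 lost its call with normexp (-1.65). The remaining falls were A530020G20Rik (-2.12) and Mx2 (-2.13), an interferon-stimulated gene described with its list.

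**Figure D2:**
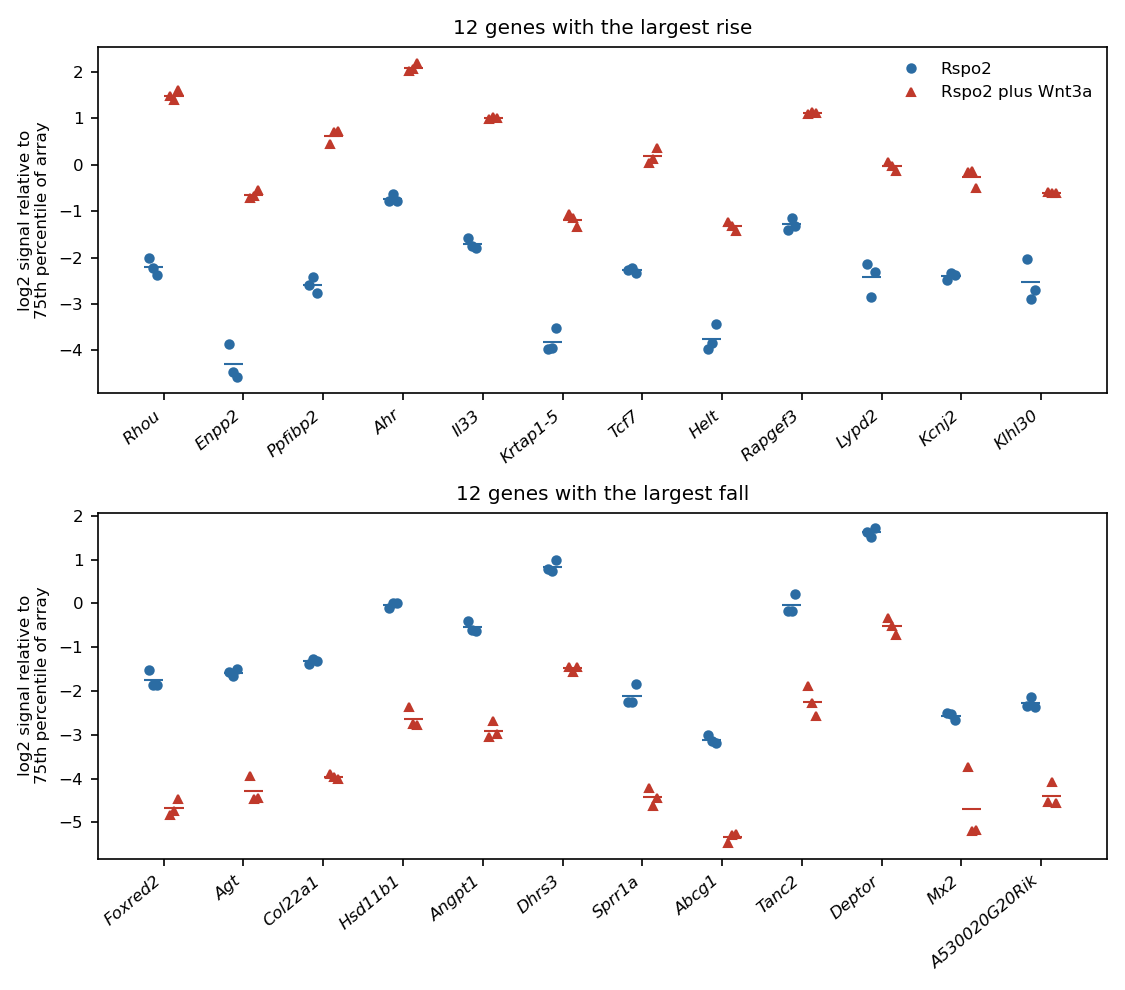
Log2 level, scaled to the 75th percentile (y axis), for the 12 genes with the largest rise and the 12 with the largest fall (x axis), with 1 point per array and bars at the group means of 3 arrays. In each gene the points of the 2 groups do not overlap, which the choice of the genes required.

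The plot of the 24 genes shows little spread between replicates beside the differences, with the widest spread in Mx2 among the falls.

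Probes well above background in only 1 of the 2 groups give a bound on the change, computed against the lowest signal well above background on each array. Of the 22463 probes detected in either group, of which 570 (2.54%) were called, 146 passed background on the 3 arrays with both proteins and on no Rspo2 array. Of these 63 were called, and 12 probes showed the reverse, all 12 called. The pick fixed the direction of these changes, and the calls use signals near background in the dim group. These counts are therefore a description and no test, and no p-value is given with a bound. Leaving out genes with another probe above background in the dim group, 41 and 7 genes had a bound. The share of probes well above background was 51.28%, 53.77% and 58.76% on the Rspo2 arrays and 61.73%, 56.46% and 56.33% on those with both proteins. Axin2, a scaffold that promotes the degradation of β-catenin and a feedback target of the pathway, had levels of -2.14, -1.73 and -1.53 with both proteins and was not well above background with Rspo2. It was at least 9.8-fold higher with Wnt3a. The other large lower bounds among rises were 8.82-fold for the tetraspanin Tspan18, 8.66-fold for the heparan sulfate sulfotransferase Hs3st1, 7.46-fold for Prr5l and 5.09-fold for Krt76. The tyrosine kinase Tec, listed by the study, was at least 5.09-fold higher at 1 probe. With normexp the calls of Axin2 (1.06), Tspan18, Hs3st1, Prr5l and Krt76 were lost.

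Cntn1, a cell adhesion molecule of the immunoglobulin family, went the other way. Its levels with Rspo2 were -1.19, -1.11 and -1.20, and no array with both proteins was well above background, so it was at least 21-fold lower. A further probe gave at least 13.4-fold. The next bounds were at least 4.18-fold lower for 2210418G03Rik, 3.73-fold for Plac8 and 2.98-fold for F11, whose Rspo2 levels of -2.07, -4.29 and -5.60 had a wide spread. Cntn1 kept its call with normexp, and these 3 did not.

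Some genes were well above background on part of the arrays of a group. They fall outside the rule by which genes were named and were chosen after their values were seen. Ch25h, which makes 25-hydroxycholesterol, had levels of -4.47, -4.30 and -4.11 with Rspo2 and 0.38, 0.21 and 0.36 with both, and 2 of the Rspo2 arrays measured it. Cxcr6, a chemokine receptor, had levels of -5.26, -5.39 and -5.29 against -0.37, -0.43 and -0.32, and 1 Rspo2 array measured it. Alpl, tissue-nonspecific alkaline phosphatase, had levels of -5.38, -6.02 and -5.40 against -0.76, -0.71 and -0.82, again with 1 Rspo2 array. The fitted changes of these 3 genes, 4.61, 4.94 and 4.83, exceeded that of Rhou but rest in part on signals near background.

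Part of the Wnt/β-catenin feedback and target genes rose with Wnt3a. Of 40 genes in the list, all had a probe and 25 were measured on all 6 arrays at their brightest probe. Of these, 11 rose, none fell and 14 were not called, with a median change of 0.89 and a positive change in all 25. The members were chosen with earlier results of these data known. With normexp the sign was not kept in each member, as Rnf43 came to -0.08 and Kremen1 to -0.69. Among all 12004 genes taken by their brightest probe, 270 were called (2.25%), of which 81 (0.675%) rose and 189 (1.57%) fell, and the median was 0.01. Bambi, Dkk1, Dkk2, Dkk3, Lef1, Lgr5, Nkd1, Nkd2, Sfrp1, Sfrp2, Sp5, Tnfrsf19 and Wif1 were not detected in either group.

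Rhou and Tcf7, described above, had the largest changes in the list. The study had reported Rhou, Klf5, Edn1, Msln, Ccnd1 and Ccn2 (as Ctgf) from these same arrays. Their calls are therefore not independent evidence. Klf5, a zinc-finger transcription factor, rose from 0.90, 0.85 and 1.00 to 2.92, 2.70 and 2.54, and Edn1, the vasoconstrictor endothelin 1, from -1.74, -1.55 and -1.57 to -0.02, -0.03 and -0.07. Both were separate in all replicates, with changes of 1.80 and 1.58, the second of which was 0.97 and not called with normexp. Msln, which encodes mesothelin, rose from 3.34, 3.46 and 3.38 to 4.78, 4.70 and 4.78. Apcdd1, a membrane inhibitor of Wnt signaling, rose from 0.55, 0.58 and 0.52 to 1.93, 1.78 and 1.75. Ccnd1, which encodes cyclin D1 of the G1 phase, rose from 3.75, 3.73 and 4.12 to 5.36, 5.07 and 4.90. Its change of 1.24 was 0.91 and no longer called with slide as a term (adjusted p = 0.128 in limma).

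Genes that restrain the pathway outside the cell and at its surface moved unevenly. Notum, a secreted enzyme that removes the lipid from Wnt proteins, rose from -2.98, -2.98 and -3.10 to -1.75, -1.84 and -1.80. The groups were separate, and the change of 1.22 lost its call with normexp (0.28) and with slide as a term (adjusted p = 0.0505 in limma). Znrf3 and Rnf43, the ubiquitin ligases that R-spondins bind, differed by 0.96 and 0.89, short of 2-fold, and with normexp Rnf43 differed by -0.08. Of other targets, Ccn2 (1.02) was called, whereas Tcf7l2 (0.79), Twist1 (0.78), Ccn1 (0.69), Efnb2 (0.65), Ccn4 (0.52), Cd44 (0.28) and Myc (0.14) were not; 1 dim probe of Tcf7l2 was called at 1.08.

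The R-spondin receptor Lgr6, not in the list and taken up after its value was seen, fell. Its levels were -1.54, -1.37 and -1.41 with Rspo2 and -3.47, -3.12 and -3.16 with both proteins. The groups did not overlap, the change was -1.81 (SE 0.108, adjusted p = 1.65e-06 in limma), and the other probe fell by 1.67. Other genes of the pathway outside the list that were called were the ligand Wnt4 (-1.17), the ligand Wnt9a (1.36), the formin Daam2 (-1.79) and the corepressor Tle2 (-1.49). Wnt9a was not called with slide as a term (adjusted p = 0.0626 in limma). The brightest of the 3 probes of Ctnnb1, the gene of β-catenin, differed by -0.08, and its dimmest by -1.12.

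Part of the interferon-stimulated genes fell with Wnt3a. Of 46 genes in the list, 43 were measured, 12 fell, none rose, 31 were not called, and 35 had a negative change, with a median of -0.54 against 0.01 over all genes. The members that fell comprised antiviral effectors (Mx2, Rsad2, Oas2, Oasl1, Oasl2, Ifit3, Ifi44, Cmpk2, Iigp1), the transcription factors Irf7 and Irf9 and the protease Usp18, which removes Isg15 from proteins. Those named beyond Mx2 and Rsad2 were picked with their values known.

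Promoters of such genes can hold the interferon-stimulated response element. The 2 windows of 250 bases upstream of the start site shown here were picked because their genes fell and they hold matches. The response element was searched on both strands as GAAA, any 2 bases and GAAA again, with its reverse complement TTTC, any 2 bases and TTTC. Capitals mark its matches as they read on the strand of the gene. The Ifit3 window (RefSeq, GRCm38.p6) lies at chr19:34583279-34583528 on the plus strand, and that of Rsad2 at chr12:26456453-26456702 on the minus strand.
Ifit3: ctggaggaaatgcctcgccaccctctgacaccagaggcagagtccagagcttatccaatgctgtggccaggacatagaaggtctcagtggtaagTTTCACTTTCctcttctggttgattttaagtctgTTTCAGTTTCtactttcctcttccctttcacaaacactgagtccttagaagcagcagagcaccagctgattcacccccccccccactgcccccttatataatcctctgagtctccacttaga
Rsad2: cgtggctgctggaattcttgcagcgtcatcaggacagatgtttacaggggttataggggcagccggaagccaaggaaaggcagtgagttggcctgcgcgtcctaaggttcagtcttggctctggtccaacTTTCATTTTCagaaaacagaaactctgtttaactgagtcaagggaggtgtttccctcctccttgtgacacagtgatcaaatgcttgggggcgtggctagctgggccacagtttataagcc
A match was present in 13 of 33 windows of the measured list members (39.4%), in 2 of 8 of those that fell (25%), and in 263 of the 8586 windows of all genes measured (3.06%). A match is a description of the letters only.

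Rsad2, the antiviral enzyme viperin, had levels of -2.32, -2.25 and -2.47 with Rspo2 and -3.93, -4.33 and -4.62 with both. It fell 3.86-fold (SE of the log2 change 0.198, adjusted p = 7.4e-05 in limma), and all 3 of its probes were called. Ifit3, which binds viral RNA together with its relatives, fell from 0.31, 0.42 and 0.30 to -1.15, -1.21 and -1.16. The arrays of each group were nearly alike, and the change was -1.52 (SE 0.086, adjusted p = 1.19e-06 in limma). Irf7, the factor that amplifies type I interferon, fell from -2.07, -2.13 and -2.05 to -3.03, -3.62 and -3.64.

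The values of Mx2 were -2.50, -2.53 and -2.67 with Rspo2 and -3.73, -5.19 and -5.17 with both proteins. The first array with both proteins lay well above the other 2, the change was -2.13 (SE 0.318, adjusted p = 0.001 in limma), and the call was lost with slide as a term. Ifi44 and Oasl1 lost theirs in that fit as well (adjusted p = 0.148 and 0.206 in limma), and Irf9 came to -0.97. With normexp the calls of Mx2, Oasl1, Oasl2, Cmpk2 and Iigp1 were lost. Isg15 (-0.75), Ifit1 (-0.78), Stat2 (-0.80) and Rtp4 (-0.99) were below the threshold of 2-fold. Ifit2 (0.04), Irf1 (0.20) and Gbp3 (0.35) did not share the negative sign.

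Acute phase and complement genes, secreted proteins of the innate response, fell in part: 5 of 13 measured genes were called lower and none higher, with a median change of -0.89. C3, the central complement protein, fell from -0.91, -0.87 and -1.21 to -3.10, -2.78 and -2.47. Lbp, which carries bacterial lipopolysaccharide, fell from -0.15, -0.22 and -0.12 to -1.79, -1.83 and -1.93. Both were below the Rspo2 arrays on every array with Wnt3a. Orm1 (-1.62) and Orm2 (-1.60) were called too, but these are near-identical copies whose probes may share signal.

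Lcn2, a protein that binds bacterial siderophores, was chosen after its values were seen, as 1 of 3 arrays with both proteins measured it. It had levels of -2.40, -2.56 and -2.25 with Rspo2 and -5.11, -5.46 and -5.53 with both. The fitted change was -2.97, close to that of haptoglobin, Hp, at -2.92, which was likewise measured on 1 of the arrays with both proteins.

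Of 11 chemokine genes measured, 4 fell and none rose, with a median of -0.66. Ccl7, an attractant of monocytes, fell from 3.05, 3.27 and 3.65 to 1.85, 1.71 and 1.49, and Cxcl12, the ligand of Cxcr4, from 4.27, 4.48 and 4.33 to 3.08, 3.15 and 3.12. Neither overlapped between groups, although Cxcl12 was not called with normexp (-0.88). Cx3cl1 (-1.12) and Ccl17 (-1.11) were also called, the first of them neither with slide as a term (-0.97) nor with normexp (-0.92), and Ccl5 (-0.84), Ccl2 (-0.66), Cxcl5 (-0.47) and Ccl9 (0.76) were not. Of 19 NF-κB subunit, feedback and target genes, 1 fell, the atypical inhibitor gene Nfkbiz (-1.02), and their median was -0.08. That call was lost with slide as a term (-0.80) and with normexp (-0.83). The classical feedback inhibitors Nfkbia (-0.79) and Tnfaip3 (0.04) were not called.

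A few genes of other growth factor pathways rose. Of those named below, the study had reported Tgfb2, Tgfbr2, Inhba, Irs1, Igf1, Spry1 and Fgfrl1 (as FGFR5) from these same arrays. Of 29 TGFβ and BMP pathway genes, 5 rose and 1 fell, with a median of 0.06. The ligand gene Tgfb2 rose from -3.13, -3.18 and -3.32 to -1.17, -1.80 and -0.88, or by 1.93, which was 0.86 and not called with normexp. The receptor gene Tgfbr2 rose from 1.11, 1.39 and 1.13 to 2.55, 2.85 and 3.13. Inhba, a subunit of activin, rose from 2.40, 2.36 and 2.71 to 4.11, 3.87 and 3.75. The arrays with both proteins were thus higher for a ligand, a receptor and an activin subunit, while Tgfb1 differed by -0.52. Id4, a BMP target that restrains helix-loop-helix factors, fell from 2.61, 2.70 and 2.58 to 1.57, 1.56 and 1.51, a change of -1.08 that was -0.91 and not called with normexp.

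In the insulin/IGF list, 2 of 9 genes rose and none fell, with a median of -0.29. Irs1, the adaptor of the insulin and IGF receptors, rose from 2.86, 3.06 and 2.70 to 4.22, 4.41 and 4.50. Igf1, a ligand of the pathway, rose from -4.26, -4.05 and -3.84 to -2.58, -2.63 and -2.55. The groups of both genes were separate, but the change of 1.46 in the dim Igf1 was 0.01 with normexp. In the FGF list 3 of 13 genes rose and none fell (median 0.09): Spry1 (1.36) and Spred2 (1.03), feedback inhibitors of the Ras pathway, and the decoy receptor Fgfrl1 (1.19). Spry1 was not called with normexp (0.92).

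Of 23 guidance and ephrin genes, 2 rose and 1 fell, with a median of -0.24, and the class 3 semaphorins diverged. Sema3c, a secreted semaphorin, rose from -0.60, -0.51 and -0.54 to 1.29, 1.38 and 1.28, and its other probe by 1.33. Sema3a, a relative that repels axons, fell from -2.16, -2.09 and -2.13 to -3.89, -4.01 and -3.88. Each change, 1.87 and -1.80, was large beside replicates that spanned about the same small range. Slit2, a ligand of Robo receptors, rose by 1.07, and was not called with normexp (0.76).

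Of 14 glucocorticoid target genes measured, none rose and 2 fell, Agt and Hsd11b1, with a median of -0.50. Of 28 genes of cholesterol synthesis and the oxysterol response, Abcg1 and Abca1 (-1.46), both cholesterol exporters, fell and none rose. In that list 25 of 28 changes were negative with a median of -0.33, which normexp moved to -0.07. Abca1 missed the threshold with slide as a term (adjusted p = 0.0526 in limma), and neither exporter was called with normexp. Among 7 genes of the Ahr battery, only Ahr itself was called, and the median was 0.20.

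In the remaining lists few or no genes were called. Car9, a carbonic anhydrase of hypoxic cells, was the only one called of 28 glycolysis and hypoxia genes (-1.74). Foxred2 was the only one of 28 genes of the endoplasmic reticulum stress and amino acid response, and Smoc1 (-1.90; not called with normexp) of 34 collagen and matrix genes. Fhl1 rose by 1.29 among 17 contractile genes, although normexp gave 0.15. None was called among 33 cell cycle genes, 35 cytosolic ribosomal protein genes and 9 Hox genes, whose medians were 0.16, 0.07 and 0.15. The cell cycle list did not hold Ccnd1, called at 1.24, or Rgcc, a regulator of the cell cycle called at -1.17. The 50 genes that the study lists were selected by the study on these arrays, so their counts are not independent evidence: 23 of 36 measured rose and 6 fell, with a median of 1.36. The study also reported called members of the lists above, such as Rhou, Tgfb2, Irs1, Spry1, C3, Ccl7 and Irf7.

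With the processing used here, the plot of the lists shows the Wnt/β-catenin members all above 0. The interferon, acute phase and chemokine members lay mostly below 0. These lists were chosen with earlier results of these data known. Of the pathway genes described above as outside the Wnt list, Wnt9a rose and Lgr6, Wnt4, Daam2 and Tle2 fell.

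Wnt3a without Rspo2 was viewed beside these changes through Wnt3a minus BSA, which shares no array with the comparison above. In that contrast 306 of the 20557 probes (1.49%) were called. Of the 115 probes that rose when Wnt3a was added to Rspo2, 104 had the same sign without Rspo2, 32 were called there, and 106 had a larger change with Rspo2. Of the 297 that fell, 280 had the same sign, 51 were called without Rspo2, and 280 fell further with it. The median changes with and without Rspo2 were 1.3 and 0.678 for the rises, and -1.26 and -0.55 for the falls. Since these probes were selected for a large change with Rspo2, those medians and the counts of larger changes are a description. The difference of the 2 changes was itself tested, and 226 of the 20407 probes measured on all 12 arrays (1.11%) were called, or 234 of the 20557 (1.14%). Among the 115 and 297 selected probes, 32 had a called larger rise and 76 a called larger fall with Rspo2, and 1 a smaller fall. The tested difference contains the change by which these probes were selected, so that selection favored the direction of these counts.

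**Figure D3:**
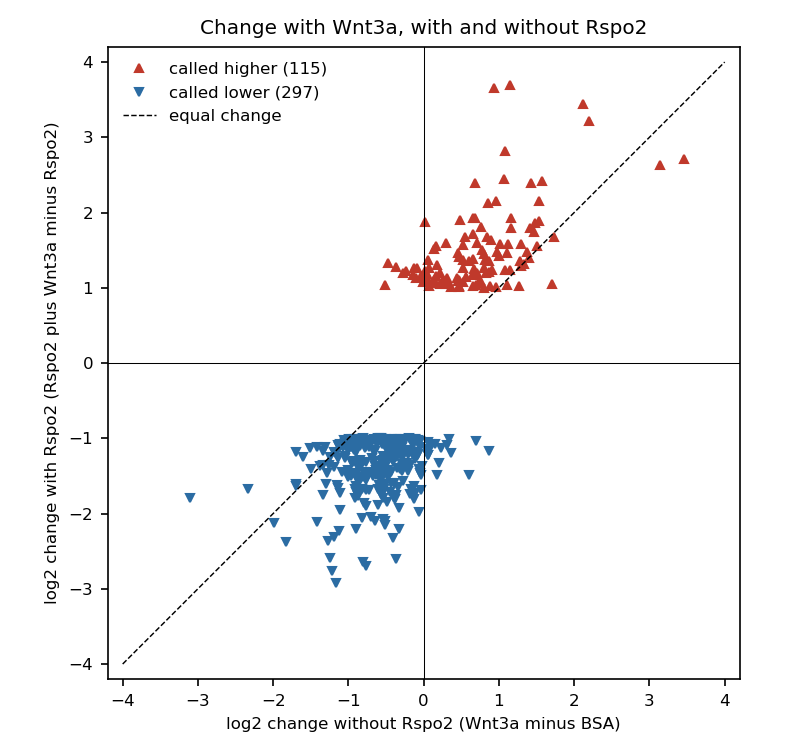
Change in log2 signal by Wnt3a with Rspo2 (y axis) against the change by Wnt3a without it (x axis) for the 412 called probes, with the dashed line at equality. Most rises lie above the line and most falls below it, which the selection of these probes by their change with Rspo2 favors.

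The plot of both changes places Rhou and Enpp2 among the rises farthest above the line of equality. Rhou changed by 1.15 without Rspo2 against 3.69 with it. Sema3c changed by 0.01 without Rspo2, from levels of 0.11, 0.17 and 0.35 with BSA, against 1.87 with it (difference 1.86, adjusted p = 5.87e-05 in limma). Notum changed by 0.02 without Rspo2 (difference 1.20, adjusted p = 0.0081 in limma). For these genes the rise by Wnt3a was larger in the presence of Rspo2 in this fit. The mean level of Sema3c was 0.21 with BSA, -0.55 with Rspo2, 0.22 with Wnt3a and 1.32 with both proteins. Its difference therefore includes a lower start with Rspo2. The calls of differences depend on the processing: over all probes 226 became 3 with normexp and 102 with slide as a term. Of 26 genes with a called difference among those named by size, 18 kept it with slide as a term and 3 with normexp (Sema3c, Dhrs3 and Hsd11b1).

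Il33 and C3 went the other way. Il33 rose from -4.19, -3.96 and -4.02 with BSA to -0.62, -0.48 and -0.70 with Wnt3a, by 3.46 against 2.72 with Rspo2. Its difference was -0.74 (adjusted p = 0.00903 in limma), short of 2-fold. C3 fell by 3.11 without Rspo2 and by 1.79 with it (difference 1.32, adjusted p = 0.0083 in limma). Both genes had already moved with Rspo2 alone. The mean level of Il33 was -4.06 with BSA, -1.71 with Rspo2 and highest, 1.01, with both proteins. For C3 the paper reports a lower level with Rspo2 alone than with BSA. The interferon-stimulated list had medians of -0.60 without Rspo2 and -0.54 with it, and within it Oasl1 had a called difference (-1.50, adjusted p = 0.032 in limma).

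**Figure D4:**
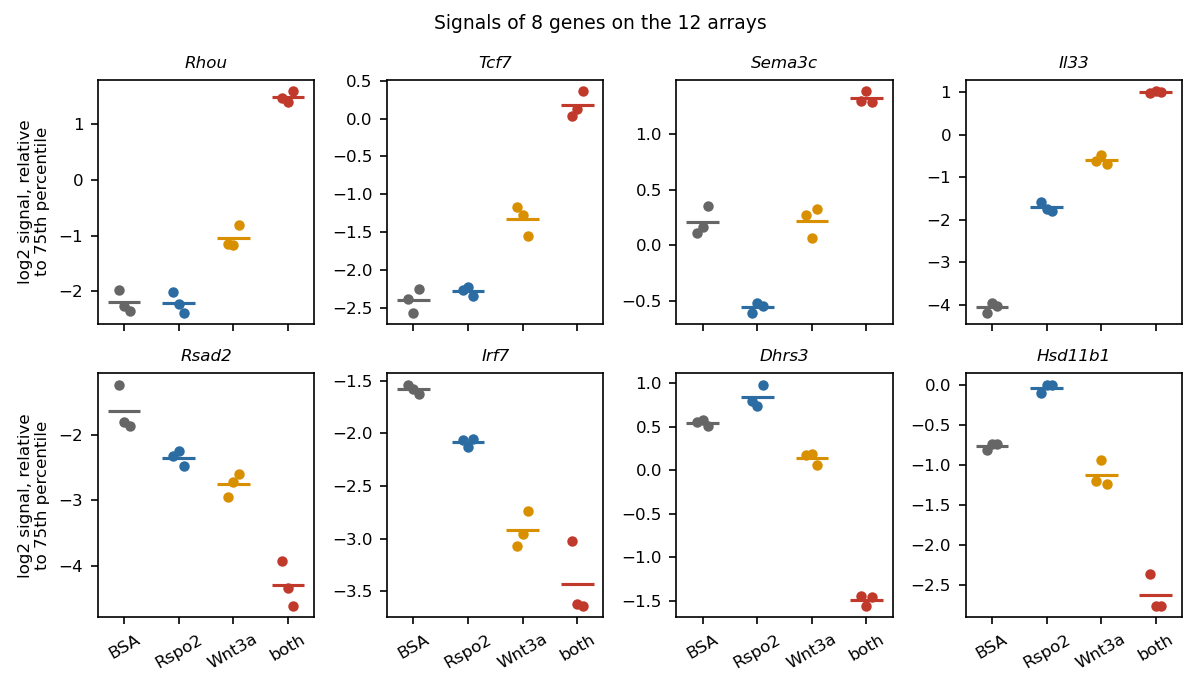
Log2 level, scaled to the 75th percentile (y axis) of Rhou, Tcf7, Sema3c, Il33, Rsad2, Irf7, Dhrs3 and Hsd11b1 on all 12 arrays by treatment (x axis), with 1 point per array and bars at the means of 3 arrays. For Rhou and Sema3c the arrays with both proteins lie above the Rspo2 arrays by 3.69 and 1.87, against changes of 1.15 and 0.01 by Wnt3a alone.

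Among the falls, Dhrs3 and Hsd11b1 had differences of -1.92 (adjusted p = 3.07e-05 in limma) and -2.24. Both started higher with Rspo2 than with BSA, at means of 0.839 against 0.545 for Dhrs3 and -0.03 against -0.76 for Hsd11b1. The plot of all 12 arrays shows their lowest levels with both proteins. Cntn1, the gene with the largest bound among the falls, carries a match to the Tcf/Lef motif upstream of 1 of its 3 annotated starts, and that window is shown for this reason. It lies at chr15:92050915-92051164 on the plus strand (RefSeq, GRCm38.p6), and capitals mark ATCAAAG, searched with its reverse complement CTTTGAT.
Cntn1: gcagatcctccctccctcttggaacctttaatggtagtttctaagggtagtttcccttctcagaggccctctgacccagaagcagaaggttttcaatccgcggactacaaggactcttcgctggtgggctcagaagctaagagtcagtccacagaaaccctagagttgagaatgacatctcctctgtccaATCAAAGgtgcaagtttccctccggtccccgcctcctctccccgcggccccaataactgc
Such a match was present in 3 of 64 windows of genes that rose (4.69%), in 5 of 138 of genes that fell (3.62%), in 0 of 3 of the Wnt list genes that rose (Rhou, Tcf7 and Edn1) and in 239 of 8586 of all genes measured (2.78%). Cntn1 had no probe measured on all 6 arrays, so it is not in those counts.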

How the data were processed

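RNA of 12 monolayers of C57MG cells was labeled with a single dye and hybridized to Agilent arrays of whole mouse genome probes. The authors scanned them with Agilent Feature Extraction 9.5.3.1, and the deposited intensity values had been background-subtracted and detrended by that software but not scaled between arrays. The authors also deposited ratios of each signal to the 75th percentile of its array; these served as an alternative here.

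Spot values flagged as uneven or as outliers (1327 of 520548) were left out, and spots were averaged into 41174 probes. From each log2 signal, that of the array's 75th percentile was subtracted. Symbols came from RefSeq accessions (22951 probes) or the array design (11010 probes); 7213 probes had none. Groups, taken from the treatment labels, were fitted in limma (version 3.58.1, under R 4.3.3) as 1 model over all 12 arrays (prior degrees of freedom 2.83). p-values were adjusted by Benjamini-Hochberg over 22463 probes detected in either group, meaning flagged as well above background by the scanner on each of its 3 arrays, and calls needed an adjusted p under 0.05 and a 2-fold change; counts lead with the 20557 probes measured on all 6 arrays. An exact permutation test of 3 against 3 arrays cannot go below 0.1, so none was used. The number of arrays limits the precision. No probe was saturated.

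The named genes are the 12 largest rises and falls, the 6 largest bounds in each direction, the 4 largest differences between the effects of Wnt3a in each direction, members of lists, genes the study lists and genes of the Wnt pathway; others were chosen after their values were seen. Results of some genes are not reported here. The members and lists were chosen with earlier results of these data known. A list took the brightest probe of each gene. The fit was tested on simulated data. Alternatives changed the background correction, scaling, filter, test, slide term, replicate block and the arrays left out. Figures were drawn with matplotlib 3.10.9 in python 3.11.15 (numpy 2.4.6, pandas 2.3.3), and files were read with the R package data.table (version 1.17.8).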

Additional observations from a re-analysis of the deposited data

Results flagged for a closer look

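Genes were singled out here because the change by Wnt3a with Rspo2 differed from the change by Wnt3a without Rspo2 in limma's test of that difference. Each difference below is the first change minus the second on the log2 scale. Most of these genes had been named for a large change with Rspo2, which favors a larger change with it than without.

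Among the rises measured in all groups compared, the differences were 2.71 for Enpp2, 2.54 for Rhou, 1.86 for Sema3c, 1.75 for Ahr, 1.71 for Lypd2, 1.38 for Tcf7, 1.27 for Kcnj2, 1.02 for Ppfibp2, 0.97 for Rapgef3 and 0.84 for Helt. The fitted rise of each was larger with Rspo2, but the differences of Rapgef3 and Helt were short of 2-fold. So was that of Il33, -0.74, with a larger rise without Rspo2. With normexp the difference of Sema3c kept its call and those of the other rises did not; with slide as a term Enpp2, Rhou, Sema3c, Ahr and Tcf7 kept theirs. The adjusted p-values in limma ran from 5.87e-05 for Sema3c to 0.0416 for Kcnj2.

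Among the falls, the differences were -2.24 for Hsd11b1, -1.94 for Agt, -1.92 for Dhrs3, -1.83 for Col22a1, -1.76 for Foxred2, -1.64 for Deptor, -1.3 for Tanc2, -1.12 for Sprr1a, -1.11 for Abcg1 and -1.1 for Angpt1. The fitted fall of all 10 was larger with Rspo2. With normexp the calls of Hsd11b1 and Dhrs3 were kept and the others lost, and with slide as a term those of Tanc2, Sprr1a and Abcg1 were lost. Rgcc, a regulator of the cell cycle, had a difference of -2.04 (adjusted p = 9.23e-05 in limma), since its change was 0.87 without Rspo2 and -1.17 with it. Its levels were -1.99, -1.71 and -1.76 with Rspo2 and -2.99, -2.92 and -3.06 with both proteins, with no overlap, and its difference was not called with normexp. The mean level of Rgcc was -2.70 with BSA, -1.82 with Rspo2, -1.83 with Wnt3a and -2.99 with both. Each protein alone thus gave a higher level than BSA, and both together a level nearer to that of BSA.

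For genes whose signal was not well above background in a group, the fitted differences depend on signals near background and are no bounds. They were 4.75 for Krt76, 4.1 for Axin2, 3.07 for Tspan18, 2.81 for Hs3st1, -1.89 for St6galnac4, -2.09 for Plac8 and -2.74 for Cntn1.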

How the results depend on the processing

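None of the 38 genes named by the size of their change, bound or difference changed sign in the comparison of both proteins with Rspo2 under any alternative run. Several list members that were not called did change sign with normexp. Among them were Rnf43 (from 0.89 to -0.08), Kremen1 (from 0.13 to -0.69) and Fgfr4 (from 0.40 to -0.57). With normexp background correction 205 probes were called, 66 higher and 139 lower, 177 of them shared with the 412, 15 of the 412 had the opposite sign, and 3 differences between the effects of Wnt3a were called in place of 226. The filter on positive and significant signals gave 174 higher, and no filter gave 678 called, 212 higher and 466 lower. With slide as a fixed term 403 probes were called, 264 of them shared, and 102 differences. The methods' t-test gave 397 calls at its unadjusted threshold of 0.05 and 174 after Benjamini-Hochberg, 54 higher and 120 lower. Without the requirement of 2-fold, 3442 were called, 1350 higher and 2092 lower, and 1774 differences. Leaving out 1 array at a time gave 387 to 524 calls, 107 to 207 higher, 276 to 350 lower and 157 to 444 differences; the highest of these (524, 207 and 444) came without Rspo2 replicate 1, where 39.5% of calls were higher in place of 27.9%, and 396 differences were called without Wnt3a replicate 3. The replicate block gave 404 calls (111 higher and 293 lower), but the numbers did not pair the samples (correlations of same-numbered deviations of -0.0392, 0.1 and -0.325). Quantile normalization gave 389 and the ratios made by the authors 413 calls. The cause of these shifts was not tested.

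Of these 38 genes, 14 kept their call in every setting run. Losses came with normexp (19 genes), the adjusted t-test (17), the slide term (4 genes, among them Mx2, F11 and St6galnac4), the unadjusted t-test (F11) and the omission of Rspo2_Wnt3a replicate 3 (F11). Signal over background limits dim probes.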

Other observations

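The genes in this part were chosen after their values were seen. Cyp26b1, which degrades retinoic acid, was at least 3.4-fold higher with Wnt3a than with Rspo2 alone, and Stra6, the retinol transporter, at least 3.06-fold. Both were not well above background with Rspo2. Krt14, a keratin of basal cells, rose from 3.38, 3.24 and 3.60 to 4.68, 4.61 and 4.48, and Krt13 rose by 1.25 at its brighter probe with 0.00 at its dimmer one. Sprr1b had a change of -1.65 beside the fall of Sprr1a, while the brighter probe of Sprr2a1 differed by 0.16 and its dimmer one by -2.10.

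Fabp4, a fatty acid carrier, was called at all 3 of its probes, with -1.22 at the brightest. Single genes called lower were Plin4, a coat protein of lipid droplets (-1.45), Acox2, a peroxisomal oxidase (-1.76), and the coactivator gene Ppargc1a (-1.86). No list of such genes was counted. No adipocyte marker of Adipoq, Plin1, Lep and Cidec was detected in either group. The cAMP phosphodiesterases Pde8a (-1.97) and Pde4b (-1.03, with 2 of 3 probes called) fell, in the comparison in which Rapgef3 rose. Il1rn, the antagonist of the interleukin-1 receptor, rose by 1.48, and Has2, which makes hyaluronan, rose by 1.41 at 1 probe and differed by 0.63 at the other.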
